A study of Mus musculus with 18 samples.

Results

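The 6 genes described here belong to liver glycogen metabolism: the phosphatase targeting subunits Ppp1r3g, Ppp1r3b and Ppp1r3c, the liver glycogen synthase Gys2, the liver glycogen phosphorylase Pygl and the glycogen branching enzyme Gbe1. They were chosen by symbol, as the probe sets that the platform annotation assigns to exactly 1 of these genes, which gave 7 of the 45101 probe sets on the array. All 6 genes were among the 12169 that passed the filter on dim probe sets, and where a gene had several probe sets the brightest on average was used. Each of the 7 probe sets lay above the median of its array in 18 of 18 arrays.

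The series measured liver RNA of 18 female B6C3F1 mice, an F1 hybrid used in rodent cancer bioassays, on whole-genome Affymetrix arrays, to find expression markers that predict liver tumours. Exposure began at 5 weeks of age and lasted 13 weeks, so that all mice were 18 weeks old when liver was taken. There were 6 groups of 3 mice, 1 array per mouse. 1,5-Naphthalenediamine was given at 2000 ppm in feed, 7 days per week, and 2,3-benzofuran at 240 mg/kg by gavage in corn oil at 5 ml/kg, 5 days per week. Both are classed by the labels as positive liver carcinogens. N-(1-naphthyl)ethylenediamine, as its dihydrochloride, was given at 2000 ppm in feed and pentachloronitrobenzene at 8187 ppm in feed, both 7 days per week, and both are classed as negative. The corn oil controls received the vehicle by gavage, and the feed controls, which serve the 3 feed chemicals together, received rodent chow. Those 3 comparisons therefore share their control arrays. Animals are named below by the number in their label.

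The liver stores glucose after meals as glycogen, a branched polymer, and releases it between meals. Glycogen synthase lengthens the chains, the branching enzyme adds branch points, and glycogen phosphorylase removes glucose units from chain ends. Protein phosphatase 1 activates the synthase and inactivates the phosphorylase, and the Ppp1r3 proteins tether that phosphatase to glycogen. Ppp1r3b is the main targeting subunit of the liver, and Ppp1r3c, also called PTG, is found in many tissues. Ppp1r3g is known from mouse liver as a subunit whose expression differs between fasting and feeding.

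In RefSeq's annotation of assembly GRCm38.p6 the genes lie on 6 chromosomes: Ppp1r3g at chr13:35958824-35970388, Ppp1r3b at chr8:35375694-35388139, Ppp1r3c at chr19:36731731-36736604, Gys2 at chr6:142422612-142473130, Pygl at chr12:70190815-70227683 and Gbe1 at chr16:70313949-70569720. The 250 bases before the gene start of Ppp1r3c (minus strand, chr19:36736605-36736854) and of Gbe1 (plus strand, chr16:70313699-70313948) are shown, because Ppp1r3c varied with the clock genes from animal to animal and Gbe1 did so much less. Capitals mark an E-box, CACGTG, the element bound by the clock factors Clock, Npas2 and Arntl.
Ppp1r3c: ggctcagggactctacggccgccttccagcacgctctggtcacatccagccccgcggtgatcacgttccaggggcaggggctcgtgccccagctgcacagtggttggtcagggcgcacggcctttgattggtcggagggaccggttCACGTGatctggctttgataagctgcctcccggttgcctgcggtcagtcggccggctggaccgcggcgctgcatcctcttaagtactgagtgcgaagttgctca
Gbe1: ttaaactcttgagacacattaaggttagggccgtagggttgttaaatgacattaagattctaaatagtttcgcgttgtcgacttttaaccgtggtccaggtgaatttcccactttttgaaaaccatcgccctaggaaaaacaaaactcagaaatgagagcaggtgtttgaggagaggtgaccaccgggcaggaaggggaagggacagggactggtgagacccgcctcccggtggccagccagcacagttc

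The E-box of Ppp1r3c lay at -104 to -99 from the gene start. A set of 5 motifs was searched on both strands of the 4 promoters that the RefSeq table gave for these genes (Pygl, Ppp1r3g, Gbe1 and Ppp1r3c). The E-box was present in 6.02% of 32851 promoters cut to the same 250 bases. The D-box TTATGNAA, bound by Dbp, was in 3.07% of them and in none of the 4. The antioxidant response element TGACNNNGC was in 10.2%, and Ppp1r3g held 1 match at -222 to -214. For Ppp1r3g, positions count from the start that the promoter table uses, and the window, chr13:35967656-35967905 on the plus strand, lies inside the gene span given above. The cyclic AMP response element TGACGTCA was in 1.55% and in none of the 4. The ROR element AGGTCA was in 14.0%, and Pygl held 1 match at -128 to -123. Gbe1 held no match to any of the 5 motifs in this window. Ppp1r3g held no E-box, and its signal also varied with Dbp over the arrays (Pearson's r 0.691). The signal of Ppp1r3c ran opposite to Dbp (r -0.852) and with Npas2 (r 0.861). No promoter was available for Gys2 or Ppp1r3b. A match is a description of the letters and not of binding, and its part in the expression of these genes was not tested.

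The sections that follow give log2 signals as the authors deposited them. A log2 signal compares 1 probe set between arrays, and levels of different genes are not set against each other. Most genes had a slightly higher signal in exposed livers, with median log2 changes over the 12169 genes between 0.109 (2,3-benzofuran) and 0.175 (1,5-naphthalenediamine) for the 4 chemicals, and of 0.0387 for corn oil against feed control. Changes of genes are therefore given relative to that median, with the standard error of the limma fit, while a gene was called changed at an adjusted p under 0.05 on the deposited scale. Medians of the 18 arrays ranged from 4.25 to 4.35, and pairs of arrays correlated at 0.979 or more.
The livers held hepatocyte RNA, as labelled: all 6 hepatocyte markers lay between 11.88 and 14.49 on every array, and their summed log2 signal ranged only from 16.29 to 16.47. RNA integrity numbers ran from 7.4 to 9.4, and 5 arrays had high 18S ribosomal RNA signal. They were N-(1-naphthyl)ethylenediamine animals 12 and 14, benzofuran animals 6 and 10 and naphthalenediamine animal 4. The fit without them keeps only animal 15 of the N-(1-naphthyl)ethylenediamine group and only animal 8 of the benzofuran group. These are assumed to vary like the other groups. A call lost there for either group cannot be told apart from the loss of arrays. In liver tissue, fewer cells of a type and less RNA per cell cannot be told apart.

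**Figure D1:**
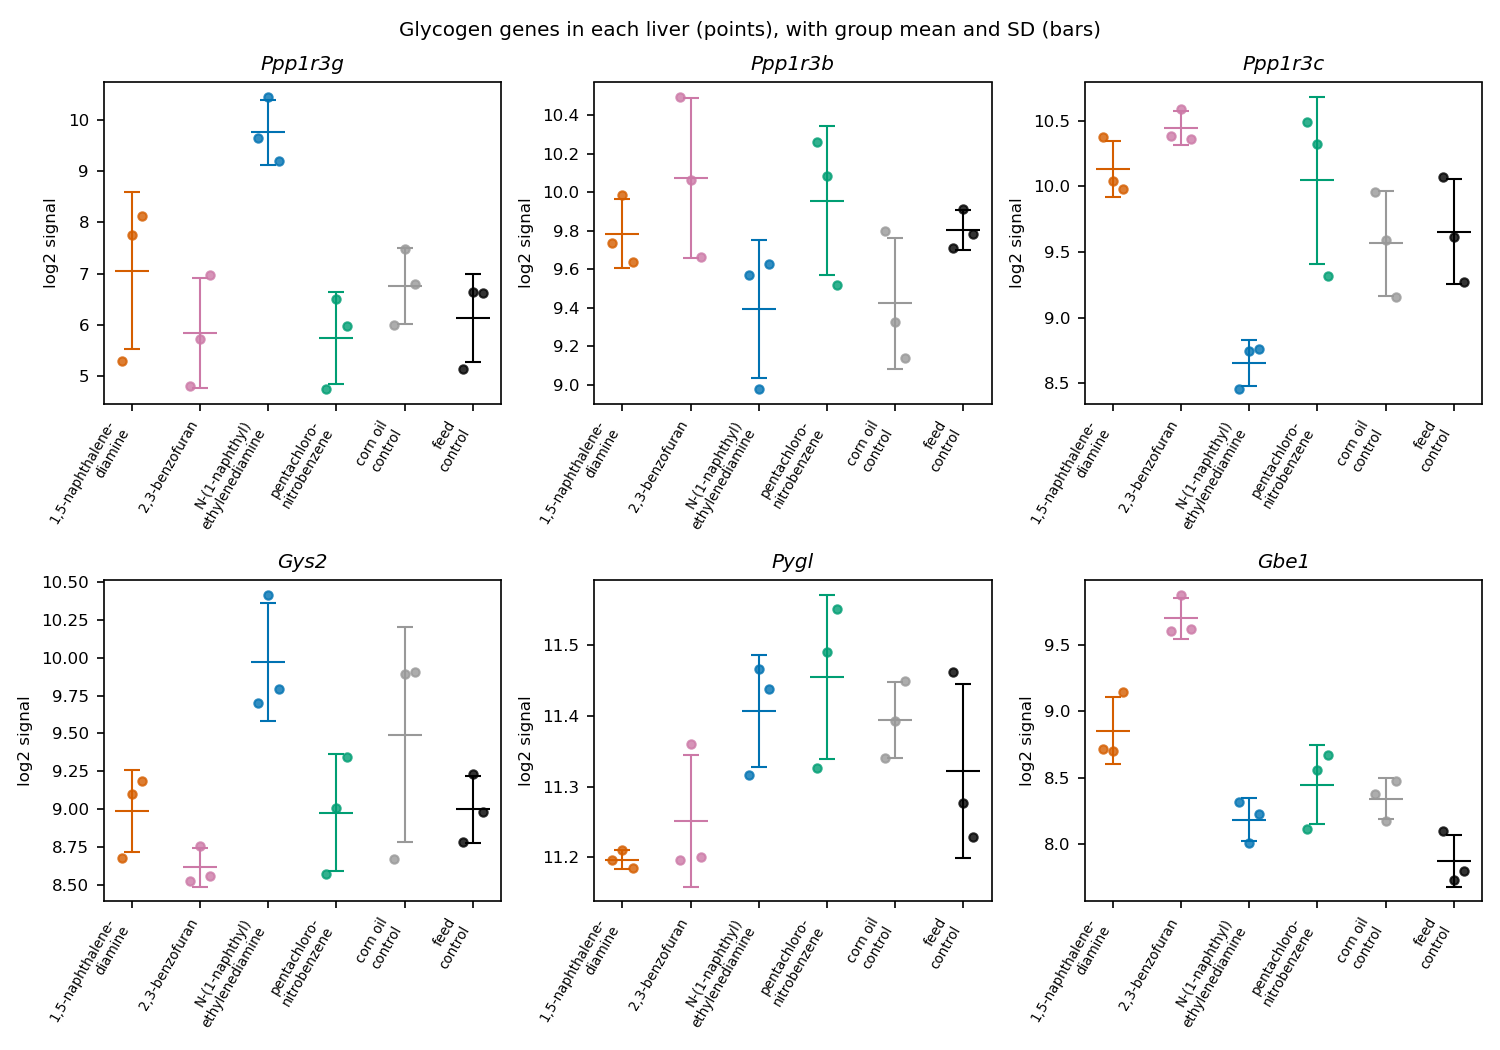
Log2 signal (vertical axis, scaled separately for each gene) of the 6 glycogen genes in each liver, by group; points are animals, horizontal bars the group mean and whiskers the SD of 3 animals. Ppp1r3g stands highest and Ppp1r3c lowest in the N-(1-naphthyl)ethylenediamine livers, and Gbe1 is highest in the 2,3-benzofuran livers.

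Gbe1 was the only 1 of the 6 genes called with 1,5-naphthalenediamine or pentachloronitrobenzene, whereas 2,3-benzofuran and N-(1-naphthyl)ethylenediamine changed several. With 1,5-naphthalenediamine, 1 of 6 genes rose and 0 fell, against a background of 31.5% of all tested genes called higher and 8.41% called lower. With 2,3-benzofuran, 3 rose and 1 fell (background 24.8% higher and 7.58% lower). With N-(1-naphthyl)ethylenediamine, 2 rose and 1 fell (background 24.7% and 4.37%). With pentachloronitrobenzene, 1 rose and 0 fell (background 14.6% and 3.87%). Between corn oil and feed controls no member was called, where 0.123% of all genes were called higher and 0% lower. In that comparison 1 of the 6 genes, Gbe1, had an unadjusted p under 0.05 in limma. The changes of the other 5 between the control groups lay between -0.42 and 0.59. None of these counts is read as particular to the 6 genes.

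**Figure D2:**
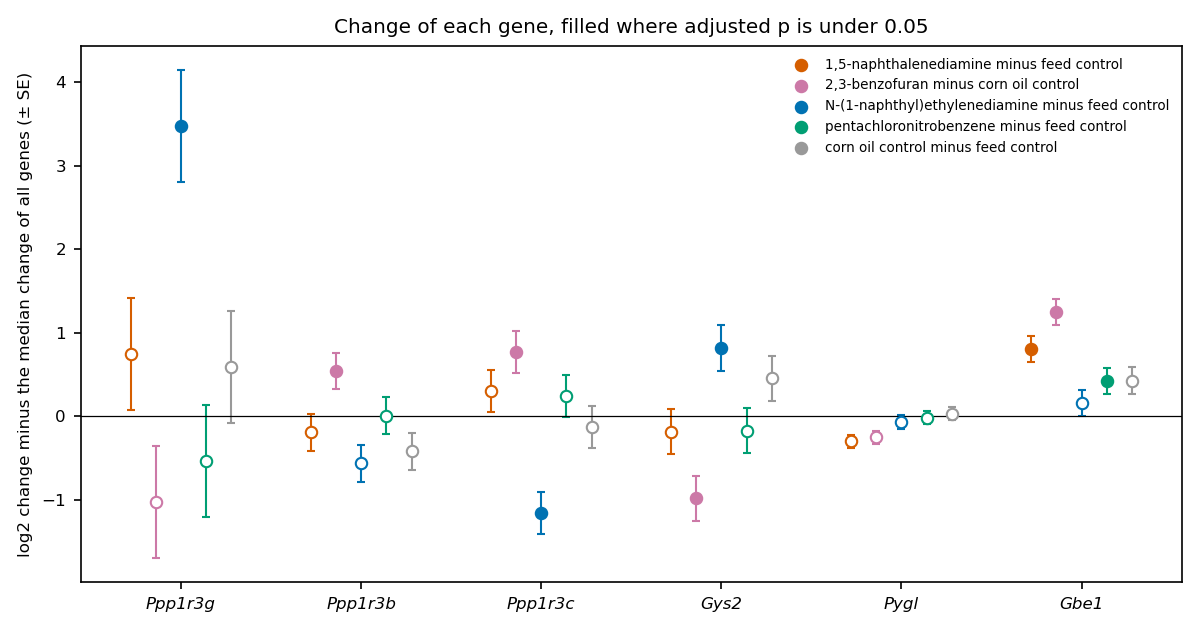
Log2 change of each gene minus the median gene's change (vertical axis; whiskers are standard errors of the limma fit, 3 animals per group), for the 4 chemicals against their controls and for corn oil against feed control. Filled points have an adjusted p under 0.05; the largest change is that of Ppp1r3g with N-(1-naphthyl)ethylenediamine, 3.48, and Gbe1 is filled for 3 of the 4 chemicals.

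Among the phosphatase targeting subunits, Ppp1r3g had the largest change of the 6 genes. Its log2 signal was 9.66, 10.45 and 9.19 in the N-(1-naphthyl)ethylenediamine livers, against 5.15, 6.64 and 6.62 in the feed controls. All 3 exposed animals lay above every other animal of the series. Ppp1r3g rose 11.1-fold relative to the median gene, a log2 change of 3.48 ± 0.669 (SE, n = 3 per group; limma adjusted p = 0.00186). The call held when any 1 array was left out, with adjusted p between 0.000856 and 0.00915. It was lost with RNA integrity as a covariate (2.49, adjusted p = 0.0802), with an index of clock genes as a covariate (2.13, adjusted p = 0.0678) and without the 5 arrays of high 18S signal (2.92, adjusted p = 0.0753), although the change stayed above 2 log2 units in each.
In 1,5-naphthalenediamine livers Ppp1r3g was uneven, at 5.30 in animal 2 against 7.75 and 8.12 in animals 4 and 5. The log2 change against the feed controls was 0.75 ± 0.669 (adjusted p = 0.275), and without animal 2 it was 1.63 and called (adjusted p = 0.0296). The 2,3-benzofuran livers had 4.82, 5.73 and 6.98, against 6.00, 7.48 and 6.80 in the corn oil controls, and these ranges overlapped. That change was -1.03 (adjusted p = 0.304), with a 95% interval from -2.43 to 0.38. Pentachloronitrobenzene livers had 4.75, 6.51 and 5.97, within or below the range of the feed controls (change -0.54, adjusted p = 0.684). By group mean, the order was N-(1-naphthyl)ethylenediamine (9.77 ± 0.635, SD), 1,5-naphthalenediamine (7.06 ± 1.53), corn oil control (6.76 ± 0.74), feed control (6.13 ± 0.855), 2,3-benzofuran (5.84 ± 1.08) and pentachloronitrobenzene (5.75 ± 0.904). From 1,5-naphthalenediamine downwards, neighbours in this order overlapped.

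Ppp1r3c ran the other way. Its log2 signal was 8.46, 8.75 and 8.76 in the N-(1-naphthyl)ethylenediamine livers, against 10.07, 9.61 and 9.28 in the feed controls, and no animal of any other group was as low. Ppp1r3c fell by 1.15 ± 0.253 on the log2 scale relative to the median gene (adjusted p = 0.00885), which is 2.22-fold lower. The second probe set of the gene gave the same direction, with a group mean of 6.19 in these livers, against 8.06 in the feed controls, and a change of -2.02. With 2,3-benzofuran, Ppp1r3c was higher: 10.38, 10.59 and 10.36, against 9.95, 9.59 and 9.16 in the corn oil controls, without overlap. That rise was 0.77 ± 0.253 (adjusted p = 0.014), and the second probe set gave 0.55. The call was lost without corn oil control 25 (adjusted p = 0.0772) or benzofuran animal 8 (adjusted p = 0.0515), with the mean of both probe sets (0.68, adjusted p = 0.0704) and without the arrays of high 18S signal (0.92, adjusted p = 0.131).
With 1,5-naphthalenediamine, Ppp1r3c was at 10.38, 10.04 and 9.98, and the change against the feed controls, 0.30 ± 0.253, was not called (adjusted p = 0.135). The probe sets disagreed in sign there, since the second gave -0.17. Pentachloronitrobenzene animals 16 and 18 had 10.49 and 10.33 and animal 20 had 9.32 (change 0.24, adjusted p = 0.257). Without animal 20 the change was called (adjusted p = 0.0341). By group mean, 2,3-benzofuran (10.44 ± 0.128) stood first, followed by 1,5-naphthalenediamine (10.13 ± 0.214), pentachloronitrobenzene (10.05 ± 0.634), feed control (9.66 ± 0.401), corn oil control (9.57 ± 0.399) and N-(1-naphthyl)ethylenediamine (8.66 ± 0.172). Only the last 2 neighbours in this order did not overlap.

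Ppp1r3b, the main hepatic targeting subunit, moved least of the 3 subunits under the chemicals. It was at 10.49, 10.06 and 9.66 in 2,3-benzofuran livers, against 9.80, 9.33 and 9.14 in corn oil controls. The rise of 0.54 ± 0.221 was called (adjusted p = 0.0319), although the groups overlapped. Leaving out any of 4 single arrays ended the call: corn oil controls 24 (adjusted p = 0.0934) or 25 (0.134), or benzofuran animals 6 (0.165) or 8 (0.0692). It was also lost with quantile normalization (0.49, adjusted p = 0.141), with centring (0.54, adjusted p = 0.114), with RNA integrity as a covariate (0.37, adjusted p = 0.142) and without the arrays of high 18S signal (0.54, adjusted p = 0.139). In N-(1-naphthyl)ethylenediamine livers Ppp1r3b was at 9.57, 8.98 and 9.63, against 9.71, 9.91 and 9.78 in feed controls. These ranges did not overlap, but the change of -0.56 ± 0.221 was not called on the deposited scale (adjusted p = 0.167). It was called lower once each array was centred on its median gene (adjusted p = 0.0472). The 1,5-naphthalenediamine livers (9.73, 9.98 and 9.64) and the pentachloronitrobenzene livers (10.26, 10.09 and 9.52) overlapped the feed controls, with changes of -0.19 (adjusted p = 0.957) and 0.01 (adjusted p = 0.62). By group mean the order was 2,3-benzofuran (10.07), pentachloronitrobenzene (9.96), feed control (9.80), 1,5-naphthalenediamine (9.79), corn oil control (9.42) and N-(1-naphthyl)ethylenediamine (9.39), and every pair of neighbours overlapped.

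Gys2 encodes the synthase isoform of liver. It was at 9.70, 10.42 and 9.79 in N-(1-naphthyl)ethylenediamine livers, against 8.79, 9.23 and 8.98 in feed controls, without overlap. The rise was 0.82 ± 0.271, or 1.76-fold (adjusted p = 0.0146). The call was lost without animal 14 (adjusted p = 0.0644) with quantile normalization (0.74, adjusted p = 0.0626), with centring (0.82, adjusted p = 0.0637) and without the arrays of high 18S signal (0.66, adjusted p = 0.255). With 2,3-benzofuran, Gys2 was at 8.53, 8.76 and 8.56, against 8.67, 9.89 and 9.91 in the corn oil controls. It fell by 0.98 ± 0.271 (adjusted p = 0.0206). The spread lay in the controls: corn oil animal 22 was level with the exposed animals, and animals 24 and 25 stood more than a log2 unit above it. Without animal 24 the adjusted p was 0.104 and without animal 25 it was 0.103. The call was also lost without benzofuran animal 6 (adjusted p = 0.0607) or 10 (adjusted p = 0.0551), with RNA integrity as a covariate (-0.86, adjusted p = 0.0862) and without the arrays of high 18S signal (-0.83, adjusted p = 0.267). The 1,5-naphthalenediamine livers (8.68, 9.10 and 9.18) and pentachloronitrobenzene livers (8.57, 9.01 and 9.34) overlapped the feed controls, with changes of -0.19 and -0.17 (adjusted p = 0.979 and 0.954). Group means ran from 9.97 with N-(1-naphthyl)ethylenediamine through 9.49 in corn oil controls, then feed controls, 8.99 with 1,5-naphthalenediamine and 8.98 with pentachloronitrobenzene, to 8.62 with 2,3-benzofuran, and all neighbours overlapped.

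Gbe1, the branching enzyme, rose with 3 of the 4 chemicals, and its largest rises were with the positive liver carcinogens. In 2,3-benzofuran livers it was at 9.60, 9.88 and 9.62, against 8.38, 8.17 and 8.48 in corn oil controls. That is 2.37-fold higher, a log2 change of 1.25 ± 0.156 (adjusted p = 1.02e-05). In 1,5-naphthalenediamine livers it was at 8.71, 8.70 and 9.15, against 8.10, 7.73 and 7.80 in feed controls, a rise of 1.74-fold or 0.80 ± 0.156 (adjusted p = 0.000247). In neither comparison did the groups overlap, and both calls held under each of the 28 alternative settings run, left-out arrays included.
With pentachloronitrobenzene, Gbe1 was at 8.11, 8.56 and 8.67, the lowest of which just cleared the highest feed control. The rise of 0.42 ± 0.156 was called (adjusted p = 0.0213), but leaving out pentachloronitrobenzene animal 18 or 20 or feed control 28 or 29 ended the call (adjusted p between 0.0503 and 0.0825), as did quantile normalization (0.36, adjusted p = 0.172), centring (0.42, adjusted p = 0.145), a fit to these 2 groups alone (0.42, adjusted p = 0.0772) and leaving out the 3 arrays of high Dbp outside the N-(1-naphthyl)ethylenediamine group (0.31, adjusted p = 0.091). N-(1-naphthyl)ethylenediamine livers had 8.32, 8.01 and 8.23, and the range overlapped the feed controls (0.15 ± 0.156, adjusted p = 0.14). The corn oil controls themselves stood above the feed controls without overlap, by 0.43 ± 0.156, which did not pass (limma adjusted p = 0.307). By group mean the order was 2,3-benzofuran (9.70 ± 0.155), 1,5-naphthalenediamine (8.85 ± 0.254), pentachloronitrobenzene (8.45 ± 0.297), corn oil control (8.34 ± 0.156), N-(1-naphthyl)ethylenediamine (8.19 ± 0.159) and feed control (7.88 ± 0.195). Neighbours among the first 3 groups did not overlap, and all later neighbours did.
Macrophage and other markers moved in the same livers. The summed log2 signal of 6 Kupffer cell and macrophage markers lay between 11.04 and 11.31 in 2,3-benzofuran livers, against 11.50 to 11.84 in corn oil controls, and 3 of the 6 were called lower. It lay between 10.85 and 11.36 in 1,5-naphthalenediamine livers, against 11.15 to 11.77 in feed controls, with 2 of the 6 lower. Of 2 pancreas markers on the array, Cpa1 was too dim to be tested, so their summed signal was largely that of Cela1. The sum lay between 7.82 and 8.03 in 2,3-benzofuran livers, against 9.36 to 9.50 in corn oil controls. It lay between 7.47 and 8.03 in 1,5-naphthalenediamine livers, against 9.09 to 9.70 in feed controls. Cela1, a pancreatic elastase and the 1 of these that was tested, fell by 1.64 and by 1.85 on the log2 scale in these comparisons (adjusted p = 4.34e-05 and 2.35e-05). Of 3 bile duct markers tested, Epcam alone was called with 1,5-naphthalenediamine, lower, and none with 2,3-benzofuran. Summed with Krt7, which was too dim to be tested, they gave 6.42 to 6.62 in 2,3-benzofuran livers, against 6.66 to 6.73 in corn oil controls. All were dim, at 5.97 or less on every array. Summed lymphocyte, stellate cell and sinusoidal endothelium markers were also lower in 2,3-benzofuran livers than in corn oil controls. They were 7.05 to 7.20 against 7.36 to 7.60, 9.08 to 9.45 against 9.58 to 9.66, and 10.03 to 10.33 against 10.37 to 10.60. Among these markers only Ptprc, Reln and Stab2 were called, all lower. With 1,5-naphthalenediamine these sums overlapped the feed controls. With Cpa1 dim in every group, Cela1 is not read as a measure of pancreatic cells. The part of these markers and cell types in the result for Gbe1 was not tested.

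Pygl, the phosphorylase that releases glucose units, varied least, with all 18 animals between 11.19 and 11.55. The 1,5-naphthalenediamine livers had 11.20, 11.21 and 11.19, just under the feed controls at 11.46, 11.28 and 11.23. On the deposited scale the change was not called (adjusted p = 0.217), while the change relative to the median gene was -0.30 ± 0.0801. It was called after quantile normalization (-0.32, adjusted p = 0.00309). The call depended on the scale in the same way for 2,3-benzofuran, with 11.20, 11.36 and 11.20, against 11.34, 11.39 and 11.45 in corn oil controls (-0.25, adjusted p = 0.182, or 0.0141 after quantile normalization). With N-(1-naphthyl)ethylenediamine (11.32, 11.47 and 11.44) and pentachloronitrobenzene (11.33, 11.49 and 11.55), the sign depended on the scale. The deposited changes were 0.08 and 0.13, and relative to the median gene they were -0.07 and -0.01 (adjusted p = 0.439 and 0.225). By group mean, pentachloronitrobenzene (11.46) stood first and 1,5-naphthalenediamine (11.20) last, and all neighbours in the order overlapped.

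The members that changed with N-(1-naphthyl)ethylenediamine moved alongside circadian clock genes. The clock is a feedback loop in which Clock or Npas2 pairs with Arntl to drive genes such as Per3 and Dbp, so that Dbp and Arntl peak at opposite times of day in mouse liver. In these livers 7 of 14 clock genes were called higher and 3 lower. Dbp was at 9.46, 10.10 and 10.23, against 4.00, 4.11 and 7.53 in feed controls, and Arntl and Npas2 fell by 1.86 and 1.80 on the log2 scale. The time of day at which liver was taken is not given in the sources used here.
In other groups, the 3 animals with Dbp of 9.17 or more had higher Gys2 and lower Ppp1r3c than the rest of their own group. Their Ppp1r3c stayed above the 8.46 to 8.76 of the N-(1-naphthyl)ethylenediamine livers. Corn oil controls 24 and 25 had Dbp at 10.08 and 10.33, against 5.40 in animal 22. Their Gys2 was 9.89 and 9.91, against 8.67, and their Ppp1r3c 9.59 and 9.16, against 9.95. Pentachloronitrobenzene animal 20 had Dbp at 9.17, against 4.35 and 3.90 in animals 16 and 18, and it had the highest Gys2 and the lowest Ppp1r3c of its group. Ppp1r3g did not follow in the same way with pentachloronitrobenzene, where animal 20, at 5.97, lay between animals 16 and 18. Corn oil animals 24 and 25, at 7.48 and 6.80, lay above animal 22 (6.00) but stayed well under the N-(1-naphthyl)ethylenediamine livers.

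**Figure D3:**
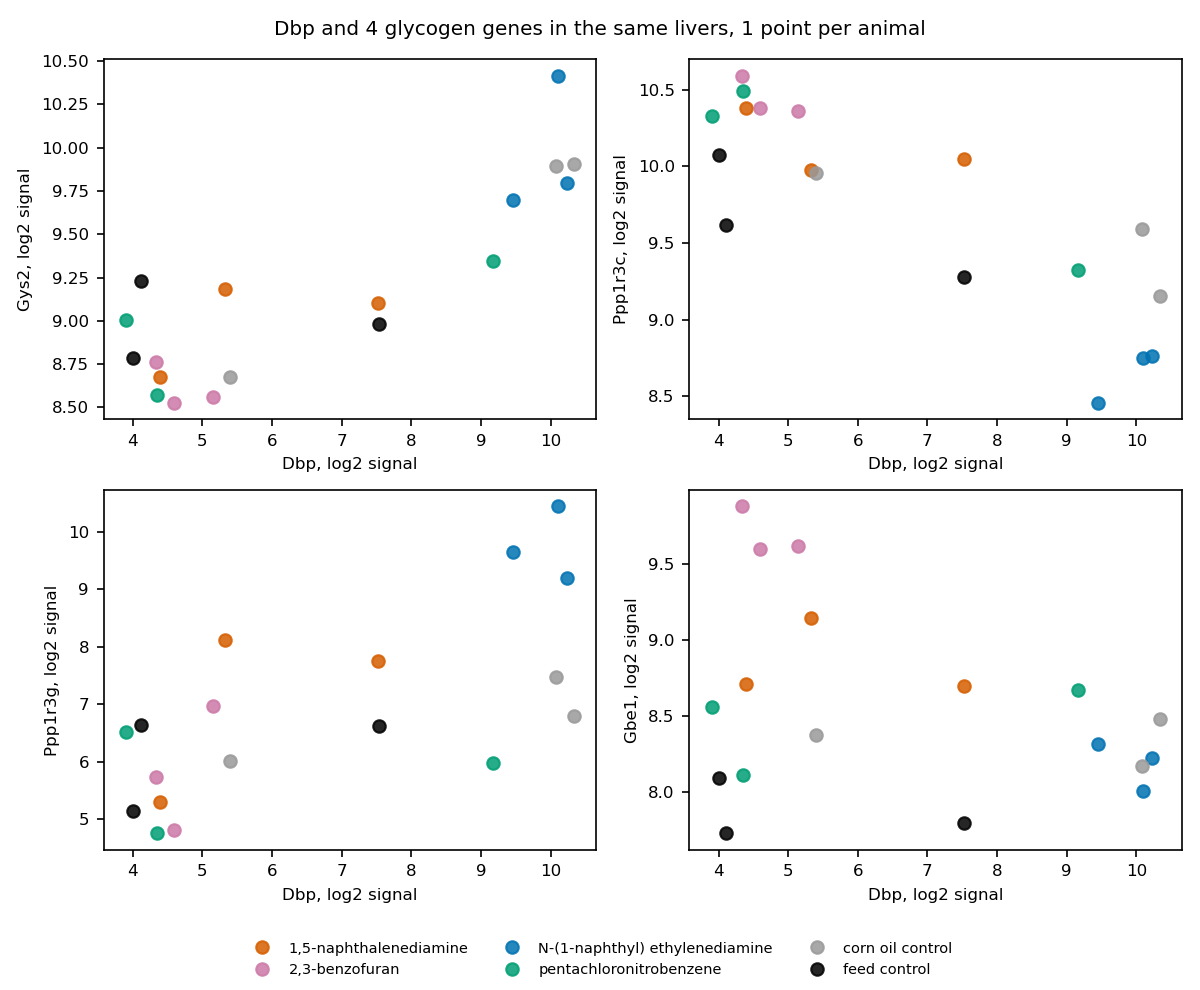
Log2 signal of Dbp (horizontal axis) and of Gys2, Ppp1r3c, Ppp1r3g and Gbe1 (vertical axes) in the same livers, 1 point per animal, coloured by group. The 6 animals with Dbp above 9, from 3 groups, have the 6 highest Gys2 values, and Ppp1r3c lies between 8.46 and 9.59 in them; Gbe1 is highest in the 2,3-benzofuran animals, whose Dbp is low.

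Over the 18 arrays, Pearson's r with Dbp was 0.851 for Gys2, -0.852 for Ppp1r3c, -0.731 for Ppp1r3b, 0.691 for Ppp1r3g, 0.358 for Pygl and -0.363 for Gbe1. These are descriptions of 18 arrays in 6 groups, 1 of which has high Dbp throughout. With the clock index as a covariate (the mean of Dbp, Per3 and Tef minus that of Arntl, Npas2 and Clock), the N-(1-naphthyl)ethylenediamine change was 0.01 for Gys2 and -0.32 for Ppp1r3c (adjusted p = 0.644 and 0.641). The index lay between 2.88 and 3.25 in these livers, against -1.57 to 0.847 in feed controls, and it ranged from -0.703 to 3.22 in corn oil controls. The same 3 livers had RNA integrity numbers of 7.7, 8.1 and 7.7, against 8.8, 8.8 and 9.1 in feed controls, and 2 of the 3 had high 18S signal. With RNA integrity as a covariate the changes of Gys2 and Ppp1r3c were 0.60 and -1.07 (adjusted p = 0.219 and 0.116), and without the arrays of high 18S signal Ppp1r3c was at -1.03 (adjusted p = 0.204). Of all genes tested, 352 and 529 were called in these fits, against 3536 otherwise. Alas2, the only red blood cell marker tested, rose by 0.80 in these livers (limma adjusted p = 0.00751). Summed with a second, dim marker, it gave 7.99 to 8.92, against 7.14 to 7.66 in feed controls. Cela1, the only pancreas marker tested, fell by 1.07 (adjusted p = 0.0044). Summed with a second, dim marker, it gave 8.18 to 8.99, against 9.09 to 9.70 in feed controls. The sum of 4 bile duct markers, 3 of them tested, was also lower, at 6.46 to 6.59, against 6.77 to 7.05 in feed controls. Of these Sox9 alone was called, at -0.69 (adjusted p = 0.0166). The part of the clock, RNA quality or these cells in the result was not tested.
The 2,3-benzofuran changes of Ppp1r3c, Ppp1r3b and Gys2 were smaller without the corn oil animals with high Dbp. As given above, each of these calls was also lost without a single benzofuran animal. The Ppp1r3c change was then 0.695 (without animal 8), and that of Gys2 -0.938 or -0.95 (without animal 6 or 10). That of Ppp1r3b was 0.334 or 0.549 (without animal 6 or 8). The part of the high Dbp controls in these changes was not tested. Among the clock genes, 4 of 14 were called higher and 3 lower in 2,3-benzofuran livers, with Dbp at 4.59, 4.33 and 5.15. Without corn oil animals 24 and 25 and pentachloronitrobenzene animal 20, the changes were 0.35 for Ppp1r3c, 0.13 for Ppp1r3b and -0.20 for Gys2 (adjusted p = 0.197, 0.541 and 0.915). This leaves 1 corn oil control, assumed to vary like the other groups. The Gbe1 rise was 1.18 in the same fit (adjusted p = 0.00273). With the clock index as a covariate the Gbe1 rise was 1.29 for 2,3-benzofuran (adjusted p = 0.000277). It was 0.81 for 1,5-naphthalenediamine (adjusted p = 0.000227), and both were about as large as without the index. With that index the other 2,3-benzofuran calls were lost. The changes were 0.079 for Ppp1r3c, 0.143 for Ppp1r3b and -0.34 for Gys2 (limma adjusted p = 0.563, 0.532 and 0.563). The part of the clock in these changes was not tested.

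**Figure D4:**
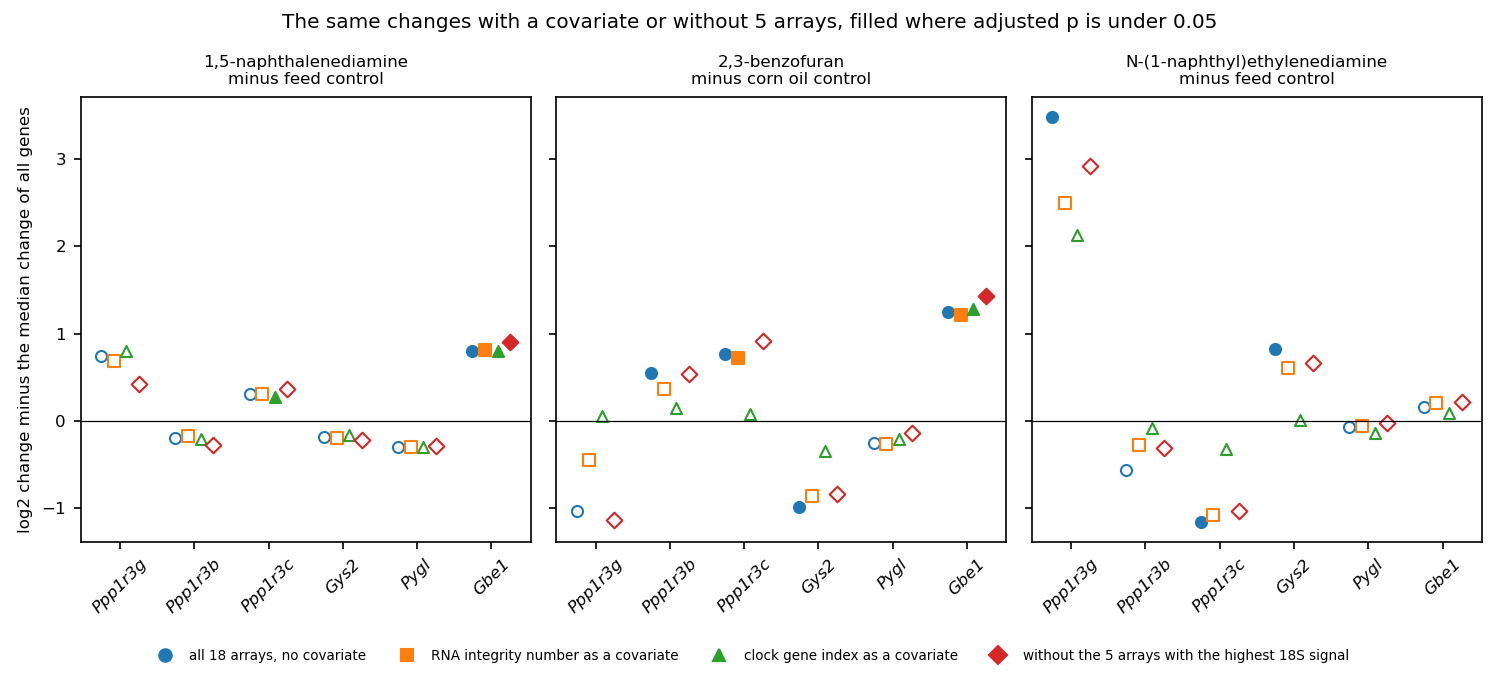
Log2 change relative to the median gene (vertical axis) of the 6 genes for 3 chemicals, in the fit to all 18 arrays, with RNA integrity or a clock gene index as a covariate, and without the 5 arrays of highest 18S signal; filled symbols have an adjusted p under 0.05. Gbe1 stays filled and in place for 1,5-naphthalenediamine and 2,3-benzofuran, while Gys2 and Ppp1r3c move towards 0 with the clock index for 2,3-benzofuran and N-(1-naphthyl)ethylenediamine.

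The naphthylamines were compared directly, as they were given at the same concentration in feed for the same time. 1,5-Naphthalenediamine carries an amino group on each ring of naphthalene, and N-(1-naphthyl)ethylenediamine carries a single aminoethylamino chain. This was 1 pair, and p-values were adjusted over all genes tested. Of the 6 genes, 2 were higher and 2 lower in 1,5-naphthalenediamine livers than in N-(1-naphthyl)ethylenediamine livers, where 3.51% of all genes were called higher and 1.96% lower. Ppp1r3c was higher by 1.48 ± 0.253 (adjusted p = 0.00182) and Gbe1 by 0.67 ± 0.156 (adjusted p = 0.0171). Ppp1r3g was lower by 2.71 ± 0.669 (log2 change -2.71, adjusted p = 0.0229) and Gys2 by 0.98 ± 0.271 (log2 change -0.98, adjusted p = 0.0413). The groups did not overlap for any of these. Ppp1r3b and Pygl did not pass, with 95% intervals of the difference from -0.07 to 0.86 and from -0.38 to -0.04. None of the 6 genes was called with RNA integrity or the clock index as a covariate or without the arrays of high 18S signal, where 93, 103 and 99 genes of all tested were called, against 666 in the fit to all arrays without a covariate. The Gbe1 difference in these 3 fits was 0.62, 0.71 and 0.71, and that of Ppp1r3c 1.40, 0.59 and 1.42. Those of Ppp1r3g were -1.79, -1.34 and -2.47, and those of Gys2 -0.78, -0.17 and -0.85. Gys2 lost its call when any of 7 single arrays was left out (adjusted p up to 0.172). The Ppp1r3g call was lost without N-(1-naphthyl)ethylenediamine animal 12 (adjusted p = 0.0525) or 14 (0.0966), or 1,5-naphthalenediamine animal 2 (0.107). The Gbe1 call was lost without N-(1-naphthyl)ethylenediamine animal 14 (adjusted p = 0.0792) or 1,5-naphthalenediamine animal 5 (0.0982).

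The positive liver carcinogens were set against the negative chemicals as the mean effect of one pair minus that of the other. Here 2 of the 6 genes were higher and 2 lower, against 3.8% and 3.39% of all genes. Ppp1r3c stood 0.98 ± 0.219 higher (adjusted p = 0.0088) and Gbe1 0.73 ± 0.135 higher (adjusted p = 0.00256) with the carcinogens. Gys2 was lower, with a log2 difference of -0.92 ± 0.235 (adjusted p = 0.0212), and Pygl by a small margin, with -0.24 ± 0.0694 (adjusted p = 0.0399), a call that 12 of the 18 arrays ended when left out. For Gys2, leaving out corn oil control 24 or 25 or pentachloronitrobenzene animal 20 ended the call, with adjusted p between 0.0507 and 0.0539. Ppp1r3g differed by -1.62 and Ppp1r3b by 0.45, and neither passed (adjusted p = 0.103 and 0.186). Without the 3 arrays of high Dbp outside the N-(1-naphthyl)ethylenediamine group, only Gbe1 was called, at 0.75 (adjusted p = 0.0188), and with the clock index as a covariate it was 0.76 and just missed (adjusted p = 0.0583). The clock index left Ppp1r3c at 0.175 and Gys2 at -0.185 (limma adjusted p = 0.756 and 0.827). With RNA integrity as a covariate the differences were 0.90 for Ppp1r3c and 0.68 for Gbe1 (adjusted p = 0.189 and 0.0906). Those of Gys2 and Pygl were -0.715 and -0.257 (limma adjusted p = 0.416 and 0.334). In that fit 149 of all genes were called, against 876 without it. Without the arrays of high 18S signal the differences were 1.035 for Ppp1r3c, 0.845 for Gbe1, -0.772 for Gys2 and -0.195 for Pygl. The calls of Ppp1r3c, Gys2 and Pygl ended there. That fit kept only animal 15 with N-(1-naphthyl)ethylenediamine and only animal 8 with 2,3-benzofuran. The differences rest on chemicals that also differ within each pair, since Ppp1r3c was low with N-(1-naphthyl)ethylenediamine and not with pentachloronitrobenzene. Gys2 was called lower with 2,3-benzofuran and higher with N-(1-naphthyl)ethylenediamine. It was not called with 1,5-naphthalenediamine (-0.186) or pentachloronitrobenzene (-0.172).

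Other genes that handle glycogen changed mostly by under 1 log2 unit. Over all genes tested, 31.5% were called higher and 8.41% lower with 1,5-naphthalenediamine, and 24.8% and 7.58% with 2,3-benzofuran. The shares were 24.7% and 4.37% with N-(1-naphthyl)ethylenediamine and 14.6% and 3.87% with pentachloronitrobenzene. Nothing is therefore read from the counts of genes called in the lists that follow. Of 7 measured genes of glucose entry and glycogen synthesis, 2 rose and 1 fell with 1,5-naphthalenediamine, 2 rose and 1 fell with 2,3-benzofuran, 2 rose with N-(1-naphthyl)ethylenediamine and none was called with pentachloronitrobenzene. Pgm1, a phosphoglucomutase, rose by 0.25 with 1,5-naphthalenediamine (adjusted p = 0.00519). Gyg, glycogenin, the protein that primes new glycogen, rose by 0.27 with 1,5-naphthalenediamine (adjusted p = 0.0355) and by 0.53 with 2,3-benzofuran (adjusted p = 0.00654). Gys1, the synthase isoform of muscle and other tissues, fell by 0.57 with 1,5-naphthalenediamine (adjusted p = 0.023) and by 0.51 with 2,3-benzofuran (adjusted p = 0.0247). Pgm2, also a phosphoglucomutase, rose by 0.58 with 2,3-benzofuran (adjusted p = 0.000126). Slc2a2, the glucose transporter of hepatocytes, rose by 0.33 and Gckr, the glucokinase regulator, by 0.28 with N-(1-naphthyl)ethylenediamine (adjusted p = 0.0137 and 0.0145).
Of 4 measured breakdown genes, 2 rose with N-(1-naphthyl)ethylenediamine: Slc37a4, the glucose-6-phosphate transporter, by 0.55 and Gaa, the lysosomal glucosidase that degrades glycogen, by 0.30 (adjusted p = 0.00694 and 0.00252). Gaa was the only 1 of the 4 called with 1,5-naphthalenediamine, on the deposited scale (limma adjusted p = 0.0436). Relative to the median gene its change was only 0.06 ± 0.0902. None of the 4 was called with 2,3-benzofuran or pentachloronitrobenzene. Of 6 measured subunits of phosphorylase kinase and glycogen synthase kinases, 2, 3, 2 and 1 rose with 1,5-naphthalenediamine, 2,3-benzofuran, N-(1-naphthyl)ethylenediamine and pentachloronitrobenzene, and none fell. Phkb, the beta subunit of phosphorylase kinase, was among them each time, at 0.44, 0.57, 0.19 and 0.41 in that order. Phkg2, the catalytic subunit of liver, rose by 0.24 with 2,3-benzofuran and by 0.18 with N-(1-naphthyl)ethylenediamine (adjusted p = 0.024 and 0.0334). Gsk3b, a kinase that inactivates glycogen synthase, rose by 0.70 with 2,3-benzofuran (adjusted p = 0.00388).
Of 5 measured catalytic and other targeting subunits of protein phosphatase 1, 2, 1, 1 and 2 rose in the same order of chemicals. Ppp1cc, a catalytic subunit, was called each time but by no more than 0.24. Among 3 glycogen-associated proteins, Nhlrc1, the ubiquitin ligase malin, rose by 0.71 with 1,5-naphthalenediamine (adjusted p = 0.000178) and by 0.34 with N-(1-naphthyl)ethylenediamine (adjusted p = 0.0129). Stbd1, which binds glycogen through its starch-binding domain, rose by 1.06 with N-(1-naphthyl)ethylenediamine (adjusted p = 0.00378). Epm2aip1, which binds laforin, rose by 0.36 with 1,5-naphthalenediamine and by 0.38 with pentachloronitrobenzene (adjusted p = 0.0235 and 0.0457). The median change of the 6 main genes relative to all genes was 0.06, 0.15, 0.04 and 0.00 for the 4 chemicals in that order.

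Of genes known to be induced by fasting or by feeding, a minority was called, as among all genes tested, where 39.9%, 32.3%, 29.1% and 18.5% were called with 1,5-naphthalenediamine, 2,3-benzofuran, N-(1-naphthyl)ethylenediamine and pentachloronitrobenzene, so nothing is read from the counts. Of 8 measured fasting genes, 2 rose with 1,5-naphthalenediamine, 1 fell with 2,3-benzofuran, 1 rose and 1 fell with N-(1-naphthyl)ethylenediamine and none was called with pentachloronitrobenzene. Ppargc1a, a coactivator of gluconeogenesis, rose by 1.54 with 1,5-naphthalenediamine (adjusted p = 0.00164) and by 1.68 with N-(1-naphthyl)ethylenediamine (adjusted p = 0.00245). Tat, tyrosine aminotransferase, rose by 0.21 with 1,5-naphthalenediamine (adjusted p = 0.0369). Fgf21, a fasting hormone, fell by 1.37 with N-(1-naphthyl)ethylenediamine (adjusted p = 0.0239), and Pck1, an enzyme of gluconeogenesis, fell by 0.74 with 2,3-benzofuran (adjusted p = 0.00713). Of 9 measured feeding genes, 2 rose and 1 fell with 1,5-naphthalenediamine, 1 rose and 2 fell with 2,3-benzofuran, 1 rose with N-(1-naphthyl)ethylenediamine and none was called with pentachloronitrobenzene. In 2,3-benzofuran livers Me1, malic enzyme, rose by 0.75 (adjusted p = 0.00292), while Scd1, a fatty acid desaturase, fell by 0.61 (adjusted p = 0.00441) and Srebf1, a driver of fatty acid synthesis that insulin induces, fell by 0.83 (adjusted p = 0.0307). In 1,5-naphthalenediamine livers Me1 rose by 0.53 and Acly, ATP citrate lyase, by 0.44 (adjusted p = 0.00822 and 0.013), while Pklr, the pyruvate kinase of liver, fell by 0.67 (adjusted p = 0.0106). Elovl6, a fatty acid elongase, rose by 0.54 with N-(1-naphthyl)ethylenediamine (adjusted p = 0.0173).

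The genes whose log2 signals most resembled each member over the 18 arrays differed between members. For Ppp1r3g they were Brap (Pearson's r 0.943), Lpin2 (0.906) and Cebpb (0.9), and for Ppp1r3b Chka (0.853), Vta1 (0.784) and Bmper (0.78). For Ppp1r3c they were Tubb2a (0.93), Clock (0.928) and Pnkd (0.876), and for Gys2 Ctdsp2 (0.916), Per3 (0.897) and Cables1 (0.894). Thus a clock gene was among the 3 nearest for both Ppp1r3c and Gys2. For Pygl they were Slc10a1 (0.944), Ceacam1 (0.939) and C1s1 (0.928), and for Gbe1 Slc35f5 (0.948), Entpd5 (0.94) and Aldh1a1 (0.931). Among the members themselves, r was -0.825 between Ppp1r3c and Gys2, -0.817 between Ppp1r3c and Ppp1r3g and 0.769 between Gys2 and Ppp1r3g, while Gbe1 reached at most 0.541 in size, with Gys2 (r -0.541). These values describe 18 arrays that share 6 group means.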

How the data were processed

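Liver RNA of 18 mice was hybridised to 18 Affymetrix arrays, and each array was assigned to 1 of 6 groups from its label. The deposited table holds log2 signals per probe set; how the authors corrected background, normalized and summarised the probes is not given in these sources. Labels name separate animals within each group. No further normalization was applied.

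A probe set was kept if it lay above its array's median in at least 3 of 18 arrays, which left 24396, of which 20712 carry 1 gene. Gene symbols were matched through Entrez identifiers to RefSeq names. A model with 6 group means was fitted with limma 3.58.1 in R 4.3.3 (empirical Bayes with a mean-variance trend, 12 residual degrees of freedom), and p-values of each of 7 contrasts were adjusted by Benjamini-Hochberg over 12169 genes, with 0.05 as threshold. The procedure was tested on simulated data. Signal over background and 3 animals per group, not read depth, limit the precision.

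The 6 genes, the gene lists and the markers were chosen with earlier results of these data known. All 6 genes are named, with up to 4 called genes per list and comparison by the size of t. Alternatives were quantile normalization, centring, no filter, the mean of all probe sets, no trend, fewer groups in the fit, RNA integrity or a clock index as a covariate, and leaving out 5 arrays of high 18S signal or single arrays. Leaving out 3 arrays of high Dbp was chosen after seeing the data. Figures were drawn with matplotlib 3.10.9.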

Additional observations from a re-analysis of the deposited data

How the results depend on the processing

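Of the 6 genes, 1 was called with 1,5-naphthalenediamine, 4 with 2,3-benzofuran, 3 with N-(1-naphthyl)ethylenediamine, 1 with pentachloronitrobenzene, 0 for corn oil against feed control, 4 for 1,5-naphthalenediamine against N-(1-naphthyl)ethylenediamine and 4 for carcinogens against negative chemicals. Leaving out single arrays gave 1 to 2, 1 to 4, 2 to 3, 0 to 1, 0 to 0, 1 to 4 and 2 to 4 genes in that order. With RNA integrity as a covariate the count was 2 for 2,3-benzofuran and 0 for N-(1-naphthyl)ethylenediamine, the direct pair and the carcinogens, where calls over all genes fell to 352, 93 and 149, against 3536, 666 and 876 in the fit to all arrays. With the clock index it was 2 for 1,5-naphthalenediamine, 1 for 2,3-benzofuran and 0 for N-(1-naphthyl)ethylenediamine, the direct pair and the carcinogens. Without the 5 arrays of high 18S signal the count fell for 2,3-benzofuran, N-(1-naphthyl)ethylenediamine, the direct pair and the carcinogens. Only N-(1-naphthyl)ethylenediamine animal 15 and 2,3-benzofuran animal 8 then remained of their groups, so these counts are not compared. Without the 3 arrays of high Dbp, an alternative added after the data had been seen, the count was 2 for 1,5-naphthalenediamine. With 1 corn oil control left, the count fell for 2,3-benzofuran and the carcinogens. It stayed at 1 for pentachloronitrobenzene, where Gbe1 lost its call (0.31, adjusted p = 0.091) and Ppp1r3c gained one (0.61, adjusted p = 0.026). Quantile normalization and centring each gave 2 for 1,5-naphthalenediamine, with Pygl added, and 0 for pentachloronitrobenzene, and with 2,3-benzofuran Pygl took the place of Ppp1r3b, and a fit to the arrays of its own groups gave 0 for pentachloronitrobenzene. The cause of these changes was not tested, beyond the smaller number of arrays where arrays were left out. No called change reversed its direction under any of these settings. No paired analysis was possible because the animal numbers differ between groups and the labels pair no animals. Signal over background and 3 animals per group limit small changes such as those of Pygl.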
